A study of Mus musculus with 18 samples.

Results

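BMAL1 binding in the kidney was described from the pooled kidney peak list, which held 4034 of the 11366 BMAL1 peaks found over 3 organs. All peaks of that list were kept as members and ranked by the score that the authors gave each peak. A peak was assigned to the protein-coding gene its centre lay in, or else to the nearest one within 50 kb. All distances run from the centre of the peak, and a peak is called inside or outside a gene by its centre, so a peak said to lie outside can still reach into the gene. The assay was ChIP-seq, in which DNA bound by a protein is recovered with an antibody and sequenced. The antibody was an affinity-purified chicken antibody to mouse BMAL1. The mice were wild-type C57BL/6 animals of 3 to 6 months, kept under equal 12 h spells of light and dark with food always at hand, and the labels name no transgene, deletion or treatment. Organs were taken 6 h after lights on (ZT6). The kidney list came from 3 BMAL1 ChIP libraries and 3 kidney input libraries, input being the same chromatin sequenced without the antibody step. Liver and heart of the same mice were handled in the same way, and their lists (4813 and 2519 peaks) serve here only for comparison. Chromatin came from whole organs, so the peaks of all cell types of the kidney are mixed.

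The circadian clock is a daily timer present in nearly all cells, and BMAL1 is one of its transcription factors. It pairs with CLOCK or NPAS2, binds short DNA words called E-boxes (CACGTG is the canonical one) and activates genes there. Among those genes are the period and cryptochrome genes, whose proteins return to block the pair, and the REV-ERB genes, whose proteins repress transcription of BMAL1 itself. In the kidney the clock is known to influence the daily course of salt transport and urine formation.

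The sequences below show what lies under the highest-scoring kidney peaks at promoters. They are the 10 top-ranked peaks that overlapped a promoter in the RefSeq promoter table (GRCm38.p6), followed by the only 1 of the 5 highest-scoring peaks of the kidney list alone that did so. Each is the stretch of the promoter that lay both under the peak and before the listed start site, written 5′ to 3′ on the strand of the gene. Capitals mark the E-box CACGTG and the related word CACGTT, which reads AACGTG on the other strand. On the minus strand of GRCm38 lie Nr1d1 (chr11:98775378-98775458), Per3 (chr4:151044666-151044776), Cry2 (chr2:92434114-92434301), 5930430L01Rik (chr5:148995219-148995406), Ciart (chr3:95882229-95882397), Mapk6 (chr9:75410048-75410235), Ankrd12 (chr17:66077047-66077227) and Phf7 (chr14:31251316-31251430). On the plus strand lie Dbp (chr7:45704997-45705112), Klf11 (chr12:24651121-24651278) and Nptn (chr9:58582045-58582232).
Nr1d1: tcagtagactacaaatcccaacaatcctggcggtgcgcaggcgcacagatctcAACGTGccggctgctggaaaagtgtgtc
Per3: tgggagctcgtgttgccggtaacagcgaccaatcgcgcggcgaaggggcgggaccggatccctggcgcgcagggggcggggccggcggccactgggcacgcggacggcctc
Dbp: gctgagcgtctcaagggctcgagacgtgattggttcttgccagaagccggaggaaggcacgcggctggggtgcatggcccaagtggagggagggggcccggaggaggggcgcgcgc
Cry2: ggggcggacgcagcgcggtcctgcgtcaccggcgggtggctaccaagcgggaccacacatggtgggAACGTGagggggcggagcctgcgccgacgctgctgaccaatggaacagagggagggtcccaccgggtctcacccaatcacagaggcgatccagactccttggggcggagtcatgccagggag
5930430L01Rik: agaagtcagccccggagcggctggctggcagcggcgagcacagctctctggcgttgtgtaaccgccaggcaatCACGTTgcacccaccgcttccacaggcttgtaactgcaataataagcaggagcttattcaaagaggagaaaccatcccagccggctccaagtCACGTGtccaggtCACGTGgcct
Ciart: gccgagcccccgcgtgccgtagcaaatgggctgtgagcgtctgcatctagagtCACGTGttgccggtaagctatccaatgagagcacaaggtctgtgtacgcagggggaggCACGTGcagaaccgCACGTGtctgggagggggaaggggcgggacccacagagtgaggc
Klf11: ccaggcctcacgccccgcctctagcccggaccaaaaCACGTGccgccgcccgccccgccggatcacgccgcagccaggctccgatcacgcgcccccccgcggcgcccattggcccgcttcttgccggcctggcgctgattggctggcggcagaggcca
Nptn: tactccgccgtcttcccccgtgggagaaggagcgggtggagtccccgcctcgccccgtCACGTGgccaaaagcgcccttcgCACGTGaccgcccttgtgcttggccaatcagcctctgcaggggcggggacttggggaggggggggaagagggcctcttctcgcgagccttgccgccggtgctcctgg
Mapk6: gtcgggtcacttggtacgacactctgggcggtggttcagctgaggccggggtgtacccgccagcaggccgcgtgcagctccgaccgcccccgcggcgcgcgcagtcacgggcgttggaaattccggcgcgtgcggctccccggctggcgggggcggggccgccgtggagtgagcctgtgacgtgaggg
Ankrd12: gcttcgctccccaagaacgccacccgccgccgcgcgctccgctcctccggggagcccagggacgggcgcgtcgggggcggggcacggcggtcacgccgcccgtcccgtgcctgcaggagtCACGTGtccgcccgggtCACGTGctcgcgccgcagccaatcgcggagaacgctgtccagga
Phf7: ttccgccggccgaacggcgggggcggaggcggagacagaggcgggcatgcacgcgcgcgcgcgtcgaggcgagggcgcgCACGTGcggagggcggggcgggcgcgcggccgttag

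The E-box was present in some of these stretches and not in others. Ciart, which encodes a repressor of the CLOCK and BMAL1 pair, held 3 copies of CACGTG under a peak of score 219. The promoter of 5930430L01Rik held 2 copies and 1 CACGTT under a peak of score 224. Nptn, which encodes a cell adhesion protein, and Ankrd12 also held 2 copies each, while Klf11 and Phf7 held 1. Nr1d1 and Cry2 held AACGTG and no CACGTG in these stretches. At Per3, Dbp and Mapk6 neither word lay in the printed letters, which says nothing about bases of the peak outside them.

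The kidney scores fell off steeply from a few very high peaks to a long tail. The score is a whole number whose meaning and scale are not stated, so it is used only to order peaks within the kidney list. It ran from 304 down to 14 with a median of 28. Only 22 peaks scored 200 or more and 208 scored 100 or more, whereas 1004 scored under 20 and 233 were tied at the lowest value. Each peak was 188 bp wide. Because the libraries of an organ had been pooled before peaks were called, no peak has a value per mouse. The read depth is unknown, no difference below could be tested over animals, and the 95% intervals given (exact Clopper-Pearson) cover counting error only. Neighbouring peaks are not independent units.

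The top of the kidney list was held by genes of the clock and its direct outputs. Nr1d1, which encodes the repressor REV-ERB alpha, had the ranks 1, 3 and 10 with scores of 304, 290 and 245. The peak of rank 1 (chr11:98783398-98783585) lay 8114 bp outside the gene, that of rank 3 inside it, and that of rank 10 across its promoter, 13 bp from the boundary of the gene. Nr1d2, which encodes the related REV-ERB beta, followed at rank 2 with 1 peak of score 301 inside the gene (chr14:18238498-18238685). These 4 sites all lay among the 12 top ranks of the liver and heart lists too.

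**Figure D1:**
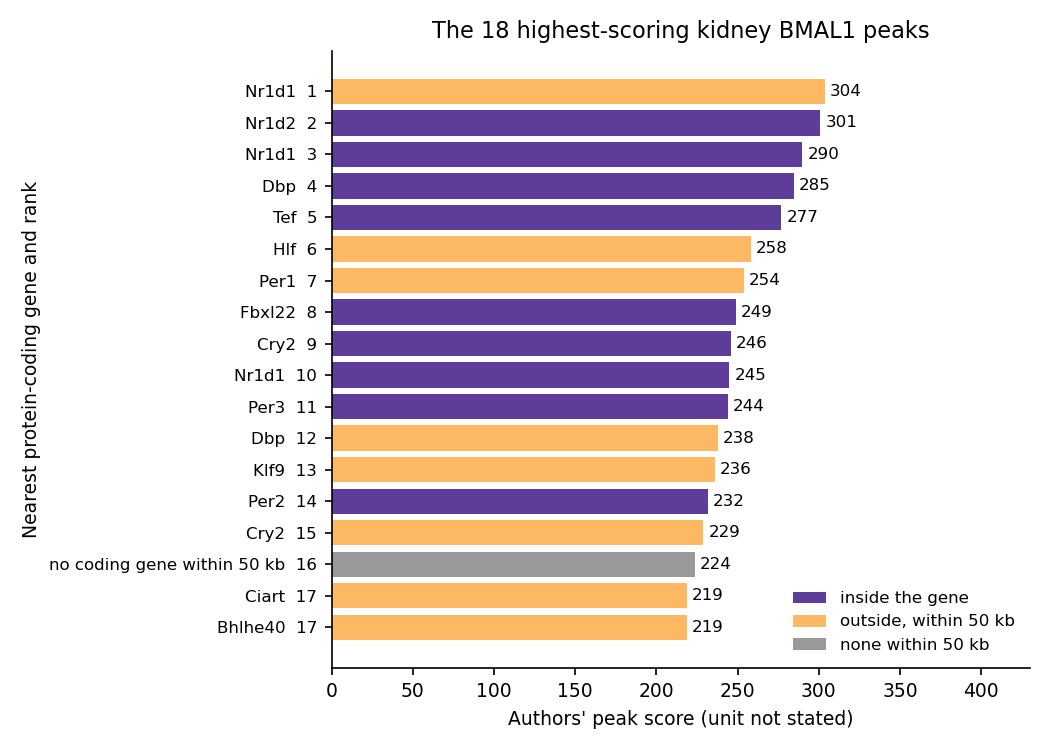
Bars give the authors' score (horizontal axis, unit not stated) of the 18 highest-scoring kidney peaks, ordered by rank and labelled with the nearest protein-coding gene; colour shows whether the peak lies inside that gene, outside it within 50 kb, or has none within 50 kb. Scores run from 304 to 219, Nr1d1 holds 3 of these bars and Dbp and Cry2 hold 2 each.

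The PAR bZIP factors, which bind D-box elements and carry the rhythm on to metabolic genes, were next. Dbp had ranks 4, 12 and 22 with scores of 285, 238 and 205, and the centre of the peak of rank 12 lay 82 bp outside the gene, so that the peak crossed the boundary. Tef had rank 5 with a score of 277 (chr15:81810884-81811071, inside the gene) and 3 more peaks of 120, 109 and 72. Hlf had rank 6 with a score of 258, although that peak lay 27157 bp outside the gene. For all 3 factors the best peak was therefore away from the gene end: inside the gene at Dbp and Tef, and distant at Hlf. Nfil3, which encodes a repressor acting on the same D-box elements, stood much lower, with 1 peak of score 100 at rank 203.

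The repressors of BMAL1 came at close ranks. Per1 had a peak of score 254 at rank 7, 210 bp outside the gene, and a further peak of 162 inside it. Per3 had 1 peak of 244 at rank 11 and Per2 had 1 of 232 at rank 14, both within 31 bp of a gene end. Per2 also held weaker peaks of 69 and 17, the last of them in the kidney list alone. Cry2 had ranks 9 and 15 with scores of 246 and 229. The first of these lay 10206 bp from the nearer end, inside the gene, and the second 122 bp outside it. Cry1 stood lower than Cry2 in the kidney list, with 1 peak of score 188 at rank 27. Bhlhe40 and Bhlhe41, which encode the E-box-binding repressors DEC1 and DEC2, held 3 peaks each. The scores were 219, 138 and 84 at Bhlhe40 and 181, 107 and 85 at Bhlhe41. Ciart had 1 peak of 219.

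Of 20 clock genes and outputs taken as a list, 18 had a kidney peak (90.0%), against 13.9% of all 21883 protein-coding genes. Together the list held 37 kidney peaks, and 7 of its genes held 3 or more. Wee1, a kinase that restrains entry into mitosis, had 1 peak of score 107 at rank 164. Rora, which encodes an activator of BMAL1 transcription, had 1 peak of 44 at rank 1037. Arntl, the gene of BMAL1 itself, had a single peak of 24 at rank 2344, 28992 bp from the nearer gene end and in the kidney list alone. Neither Clock nor Npas2, which encode the partners of BMAL1, had a kidney peak. The best peaks of the list thus ranged from rank 1 to rank 2344.

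Other genes among the 30 highest-scoring peaks are known for other roles. Klf9 and Klf11 encode Krüppel-like transcription factors and had peaks of 236 and 211, the first 5387 bp outside the gene and the second 187 bp outside. Fbxl22, an F-box protein gene, had a peak of 249 inside the gene at rank 8. Nptn and the kinase gene Mapk6 tied at 197. Hmgn2, encoding a nucleosome-binding protein, had 194, and Ankrd12, an ankyrin repeat gene, had 190. Ccne1, which encodes cyclin E1, had a peak of 188 that lay 12759 bp outside the gene. Serf2 had 187. Pfkfb3, whose enzyme makes an activator of glycolysis, had 185 at rank 30, inside the gene. In all, the 30 peaks belonged to 23 genes, and 2 had no protein-coding gene within 50 kb.

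Both gene-less peaks scored below the best peak of Per2 (232) and above that of Cry1 (188). The peak of rank 16 (chr5:148995219-148995406, score 224) lay inside Gm15411, a long non-coding RNA gene, over the promoter of 5930430L01Rik shown above. The nearest protein-coding gene, Hmgb1, was 51.4 kb away. The second gene-less peak, of score 215 (chr6:91599086-91599273), lay 76.6 kb from Lsm3. It ranked 14 in the heart list and 218 in the liver list. The next 3 such peaks scored 126, 117 and 106. The first lay inside the non-coding gene Lncpint, the second 104 kb from Zfat, and the third 86.1 kb from Spaca7. Altogether 219 kidney peaks had no protein-coding gene within 50 kb, and the remaining 3815 (94.6%) were assigned to 3048 genes.

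High-ranking kidney peaks were the ones that also appeared in the other organs. Of all kidney peaks, 36.6% overlapped a liver peak by at least 1 bp, 18.5% a heart peak, 12.8% both and 57.7% neither. All 30 of the top 30 overlapped both. Among the 103 peaks down to rank 100, ties included, 101 overlapped both and none was found in kidney alone, which allows a share of up to 3.52%. The kidney-alone share then rose in each step down the list, from 8.82% at ranks 101 to 400 (5.90 to 12.6%) to 28.0% at ranks 401 to 1000 (24.4 to 31.8%). It was 55.3% at ranks 1001 to 2000, 71.5% at 2001 to 3000 and 85.0% in the last 1004 peaks (82.6 to 87.1%). A site counts as kidney alone when it is missing from the other lists, so these shares move with how many weak peaks each list retained. The heart input libraries carry a source label that names kidney, against their titles, and whether that affected the heart list was not tested.

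**Figure D2:**
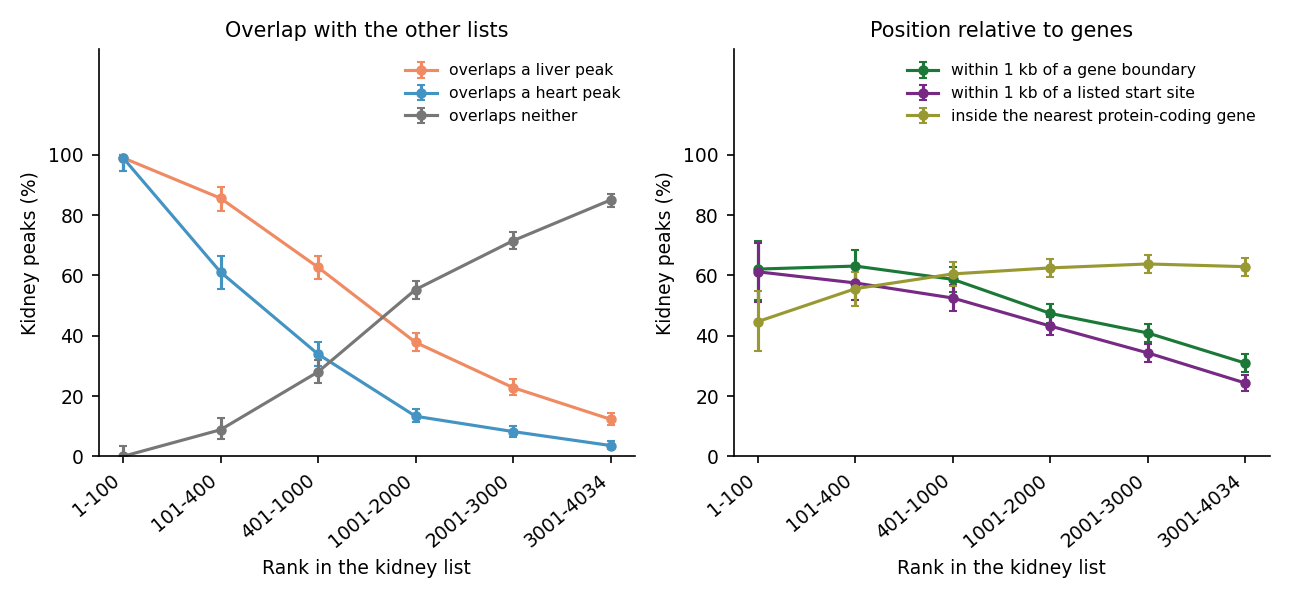
Points give the percent of kidney peaks in 6 steps of rank that overlap a peak of another list (left) or lie at a stated position relative to genes (right), with exact 95% intervals for counting error. The share overlapping neither list climbs from 0 to 85.0%, while the share within 1 kb of a gene boundary falls from 62.1 to 30.9%.

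The first peaks of the kidney list alone appeared at rank 132. One of score 117 lay 136 bp outside Ndrg1, a gene induced by hypoxia and stress, at chr15:66969684-66969871. Another of score 117 lay inside Hmcn2, which encodes a protein of the extracellular matrix, at chr2:31434692-31434879. Both genes also had liver peaks. A further kidney peak of Ndrg1, of score 53 at chr15:66968759-66968946, overlapped a liver peak, and Hmcn2 was assigned 2 liver peaks at other sites. Gstt2, a glutathione transferase gene, had a peak of 106 that crossed its boundary, with the centre 81 bp outside. Zfp775 and Phf7 followed with 98 and 96. Of the 5, those at Ndrg1, Gstt2 and Phf7 lay at a gene boundary and those at Hmcn2 and Zfp775 did not.

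Position relative to genes also changed with rank. Within 1 kb of the start or end of an annotated gene lay 44.9% of all kidney peaks (1812 peaks, 43.4 to 46.5%). The share was 62.1% among the top 100 ranks (52.0 to 71.5%) and 30.9% in the last step (28.0 to 33.8%). Start sites alone gave the same order. A listed start site lay within 1 kb of 39.3% of the 3933 peaks on chromosomes with promoter entries, 61.2% at the top and 24.3% at the bottom. Of the 1545 peaks close to a start site, 947 were centred upstream of it and 598 downstream. Peaks inside a protein-coding gene went the other way, from 44.7% at the top (34.9 to 54.8%) to 62.9% in the last step (59.9 to 65.9%), and made up 61.7% overall. The 1328 peaks outside genes but within 50 kb lay a median of 711 bp away. By chromosome, the density ranged from 4.35 kidney peaks per 100 protein-coding genes on X to 25.4 on chromosome 15, with no peak on Y.

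At least 3 kidney peaks were held by 134 genes, which is 4.40% of the genes with a kidney peak and 0.612% of all protein-coding genes. They carried 476 peaks, or 12.5% of those assigned. One peak was held by 2489 genes, 2 peaks by 425, 3 by 86, 4 by 31, 5 by 14 and 6 or more by 3. Clock genes and outputs made up 7 of the 134: Hlf held 5, Tef 4, and Nr1d1, Dbp, Per2, Bhlhe40 and Bhlhe41 held 3 each. When all annotated genes could take a peak, 95 genes held 3 or more and 3 of them were clock genes, and with peaks within 1 kb counted as 1 site the numbers were 122 and 5. Of the 23 genes among the 30 top peaks, 8 held 3 or more (34.8%), and of the 92 genes down to rank 100, 14 did (15.2%).

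By the gene a peak lies in or nearest to, the gene with the most kidney peaks was Tns1, which encodes tensin 1, a protein that ties the actin skeleton to cell adhesions. It held 12 peaks, 11 of them inside its 214 kb. By nearest gene end alone it held 3, fewer than the 5 each of Hlf, Ptma and Tomm20. The scores of the 12 peaks of Tns1 ran only from 16 to 64 with a median of 31, and the best stood at rank 528. Of the 12, 8 were found in kidney alone, 3 also in liver and 1 also in heart, and none in all 3 lists. The strongest site of Tns1 in the liver list, of score 115 at 54.9 kb from the start of the gene, had a counterpart in heart and none in kidney. The peaks of Tns1 in kidney lay instead at 2.5 kb, between 49.6 and 128.9 kb, and from 192.6 to 261.7 kb.

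Zmiz1 and Nfia held 6 peaks each. Zmiz1, encoding a transcriptional coactivator, had scores from 15 to 46, and Nfia, a nuclear factor I gene, had scores from 15 to 24. The best of them stood at ranks 972 and 2344. At both genes the liver list also held 6 peaks. The 3 genes with the most kidney peaks thus had none among the 400 highest ranks.

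**Figure D3:**
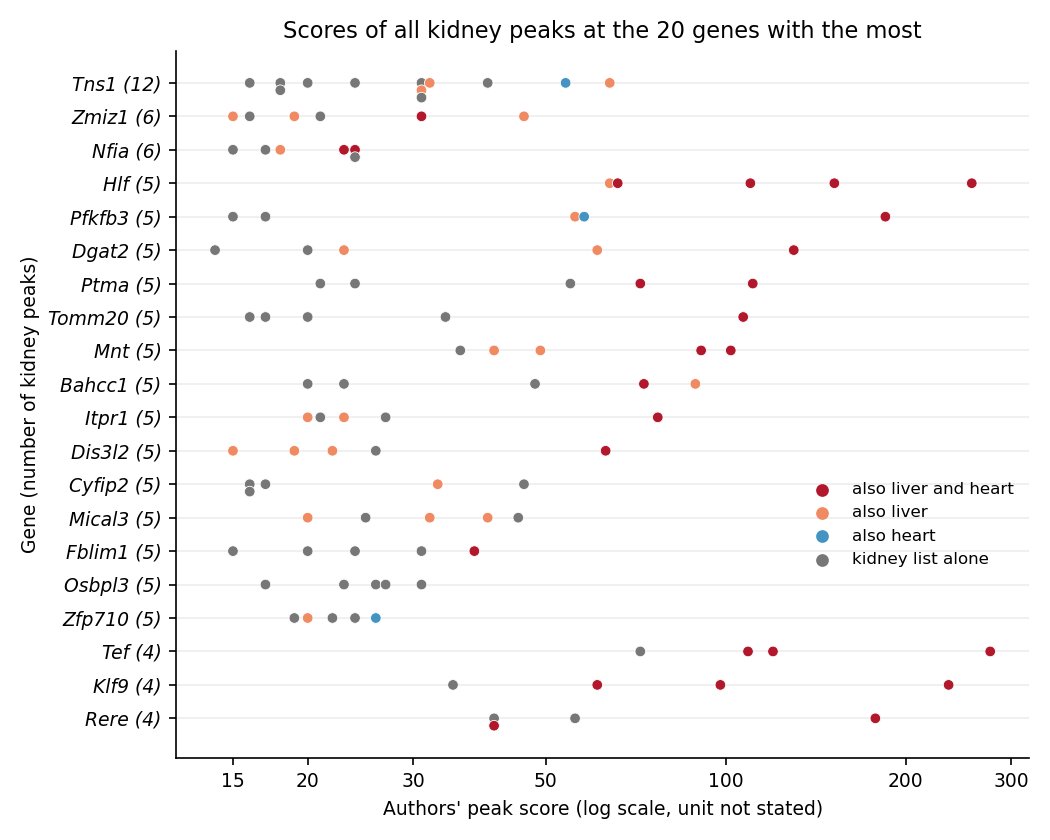
Each point is 1 kidney peak, placed by its score (horizontal log axis, unit not stated) on the line of its gene, for the 20 genes with the most kidney peaks; the number after the gene is its peak count and colour shows the lists in which the site was found. Tns1 has 12 points between 16 and 64, whereas the points of Hlf run from 64 to 258, and the kidney-alone points gather at the left.

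Of the 14 genes with 5 peaks, several combined a high peak with weak ones. At Hlf the scores were 258, 152, 110, 66 and 64, and 4 of the 5 sites lay in all 3 lists. Pfkfb3 had 185, 58, 56, 17 and 15. Dgat2, whose enzyme makes triglycerides, had 130, 61, 23, 20 and 14, the highest at 305 bp outside the gene. Ptma, encoding prothymosin alpha, had 111, 72, 55, 24 and 21, with 4 of the 5 outside a gene of only 4.16 kb. Tomm20, which encodes a receptor for import into mitochondria, had 107, 34, 20, 17 and 16, and 4 of its 5 peaks were in kidney alone. Mnt, encoding a repressor that also binds E-boxes, had all 5 peaks inside 14.9 kb of gene, with scores of 102, 91, 49, 41 and 36. In each of these 6 genes the highest peak was found in all 3 lists, at Hlf, Ptma and Mnt together with other peaks.

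The remaining genes with 5 peaks had no score above 89. Bahcc1, a chromatin protein gene, reached 89, Itpr1, which encodes a calcium channel of the endoplasmic reticulum, 77, and Dis3l2, an RNA exonuclease gene, 63. Cyfip2 and Mical3, both of proteins acting on actin, reached 46 and 45, in each case with a site of the kidney list alone. Fblim1, encoding a filamin-binding protein, reached 38, Osbpl3, a lipid-binding protein gene, 31 and Zfp710, a zinc finger gene, 26. All 5 peaks of Osbpl3 were in the kidney list alone. With 4 peaks, Tef reached 277, Klf9 236 and Rere, which encodes a nuclear corepressor, 178.

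**Figure D4:**
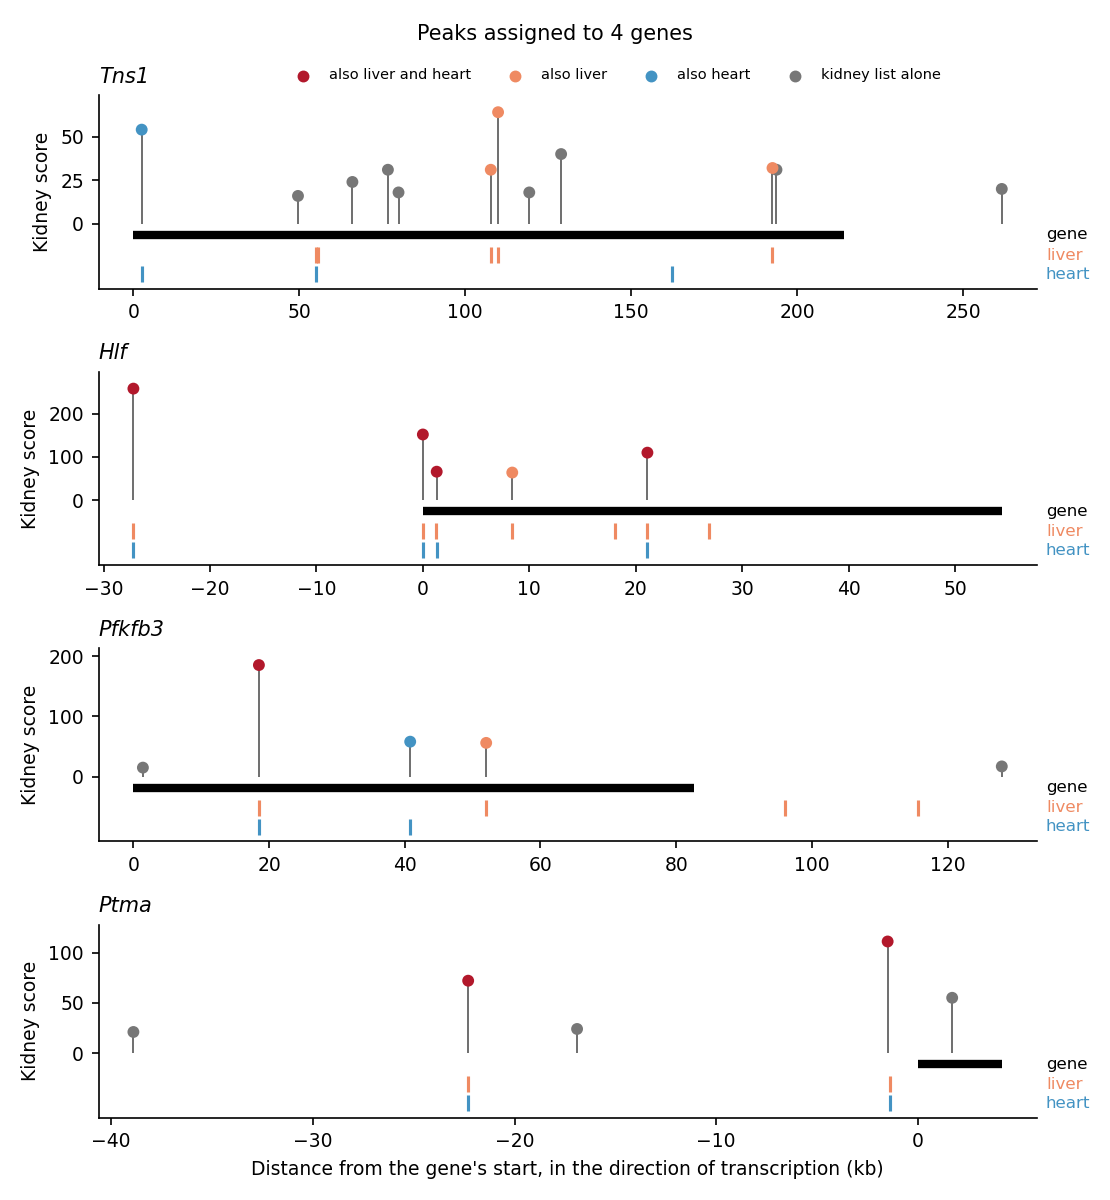
Points on stems give the score of each kidney peak (vertical axis, unit not stated) by its distance from the start of the gene (kb, in the direction of transcription) for Tns1, Hlf, Pfkfb3 and Ptma, coloured by the lists that hold the site; the black bar is the gene and the ticks under it are liver and heart peaks. At Hlf each kidney peak stands over a liver tick, while 8 of the 12 at Tns1 stand over none.

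Genes with many kidney peaks tended to be long. Median gene length was 85.3 kb for 3 or more peaks, 56.0 kb for 2, 30.5 kb for 1 and 17.2 kb for all protein-coding genes. Of the 134 genes, 63 were longer than 100 kb (47.0%), against 17.9% of genes with 1 peak, and 16 were shorter than 10 kb. A longer gene offers more sequence to which a peak can be assigned. How far length alone accounts for the peak counts was not tested. The short end included Nr1d1 (7.45 kb, 3 peaks) and Ptma, whereas Nfia spanned 541 kb.

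The first and the further peaks of these 134 genes differed in strength and in sharing. The median score was 52.5 for the best peak of a gene and 24 for the other 342 peaks. Kidney alone held 37.3% of the best peaks and 61.4% of the others, beside 57.7% of the whole list. A ranking by score within a gene sets the order of the medians. In the whole list kidney-alone sites were more common at lower scores, so the same ranking bears on these shares too. Both comparisons are given as a description only. At 24 genes every kidney peak was of the kidney list alone, and 12 genes had no liver or heart peak assigned at all. Among these 12, singled out after their values were seen, Utp20 and Glis3 held 4 peaks each, with best scores of 36 and 29. Conversely, 52 of the 134 genes also held 3 or more liver peaks and 17 held 3 or more heart peaks. The 12 that did so in both were Tns1, Hlf, Itpr1, Tef, Klf9, Usp2, Hes1, Klf13, Nr1d1, Dbp, Bhlhe40 and Bhlhe41. Of these 12, 6 are clock genes and outputs. Over all genes, 253 held 3 or more peaks in the liver list (7.84% of its genes) and 40 in the heart list (1.92%).

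Genes of the kidney's own functions were then examined by lists. Beside the 13.9% of all protein-coding genes with a kidney peak, 9 of 25 genes typical of the proximal tubule had one, the segment that reabsorbs most of the filtered salt, sugar and amino acids. The highest was a peak of 86 at Lrp2, the gene of the endocytic receptor megalin, 215 bp outside the gene. Slc9a3, which encodes the sodium-proton exchanger NHE3, had peaks of 56 and 27 inside the gene. Pck1, a gene of glucose production, had 35 and 19, Slc7a9, a cystine transporter gene, 33, and Slc22a6, an organic anion transporter gene, 22. The peaks at Lrp2, Slc9a3 and Slc7a9 were of the kidney list alone, and none of these 3 genes was assigned a liver or heart peak. Of the 25 genes, 6 had a liver peak and 2 a heart peak, beside 14.7% of all protein-coding genes with a liver peak and 9.50% with a heart peak.

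Genes regulating salt balance and blood pressure had a kidney peak in 9 of 20 cases (45.0%), beside 13.9% of all protein-coding genes. Tsc22d3, which encodes the glucocorticoid-induced factor GILZ, had 138 and 136, both in all 3 lists and lying 28324 and 19161 bp outside the gene. Nr3c1, the glucocorticoid receptor gene, had 64 and 14. Atp1b1, a subunit of the sodium pump, had 53 and 25, both of the kidney list alone, and was assigned 1 liver peak at another site. Nedd4l, whose ligase removes the epithelial sodium channel, had 37 and 30, and Klhl3, an adaptor of the ligase that degrades WNK kinases, had 36 and 19. In the same list 9 genes had a liver peak and 7 a heart peak, beside 14.7 and 9.50% of all protein-coding genes. The lists differ in length, and no difference between organs was tested.

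Kidney transcription factor genes had a kidney peak in 8 of 20 cases, beside 13.9% of all protein-coding genes. Hnf4a, a regulator of proximal tubule and liver genes, had the highest, 97 at rank 219, also found in liver. Ppara, which drives fatty acid oxidation, had 3 peaks of 86, 22 and 16. Tfcp2l1, a collecting duct factor, had 31 and Esrrg had 22. The sites at Tfcp2l1 and Esrrg were of the kidney list alone. Tfcp2l1 was however assigned 2 heart peaks at other sites, the best at heart rank 1123, whereas Esrrg had no liver or heart peak. Of the 20 genes, 6 had a liver peak and 2 a heart peak, beside 14.7 and 9.50% of all protein-coding genes.

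The more distal segments and the podocyte were counted next, beside the 13.9% of all protein-coding genes with a kidney peak. Of 13 genes of the distal convoluted and connecting tubule, 3 had a kidney peak. They were Atp2b1, a calcium pump gene, with 106, Cnnm2, a magnesium transport gene, with 61, and Kl, the gene of klotho, with 23. The sites at Atp2b1 and Cnnm2 lay in all 3 lists, and that of Kl in kidney alone. Of 15 collecting duct genes, Foxi1 (20), Aqp3 (19) and Slc4a1 (16) had one. The thick ascending limb had 1 of 12 genes, and the podocyte had 1 of 10, Magi2 with 17. In the order given the shares were 23.1, 20.0, 8.33 and 10.0%, on both sides of the share of all genes. In the same order 3, 1, 2 and 2 genes had a liver peak, beside 14.7% of all protein-coding genes. A heart peak was assigned to 2, 0, 0 and 3 genes, beside 9.50%. The scores of 16 to 23 lie below the median of the list, which is 28.

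Some well-known segment genes had a kidney peak within 50 kb that was assigned to a neighbour. Counting any peak within 50 kb whichever gene was nearest, the numbers rose to 13 proximal tubule genes, 6 each of the thick ascending limb, the distal convoluted and connecting tubule and the collecting duct, and 4 of the podocyte. Under this rule 33.1% of all protein-coding genes had a kidney peak. The following 4 were singled out after their values were seen. Slc12a3, the thiazide-sensitive sodium chloride cotransporter gene, lay within 50 kb of a peak of 117 assigned to Herpud1. Scnn1a, a subunit of the epithelial sodium channel, lay near one of 68 assigned to Tuba3a. Slc34a1, a phosphate transporter gene, lay near one of 69 assigned to Rgs14, and Nphs1, the nephrin gene, near one of 66 assigned to Nfkbid. Which gene such a peak acts on cannot be read from position. The wider rule also raised the lists of other organs, to 6 of 20 liver genes and 10 of 20 heart genes.

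Marker genes of other organs and cell types were counted in the same way, beside the 13.9% of all protein-coding genes. None of 10 endothelial, 10 immune and 20 liver genes had a kidney peak, 2 of 20 heart genes had one (Ryr2 with 47 and Atp2a2 with 15 and 14) and 1 of 10 fat cell genes did (Cebpa with 29). The adrenal gland lies beside the kidney, and 3 of 10 adrenal cortex genes had a peak: Star 49, Fdx1 33 and Nr5a1 20. The site at Star was also in the heart list. Of the same 10 genes, 2 had a liver peak and 2 a heart peak, beside 14.7 and 9.50% of all protein-coding genes. A peak shows binding and not expression, so these lists do not measure which cells the samples contained.

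Enzymes that act on clock proteins had a kidney peak in 5 of 20 cases (25.0%), beside 13.9% of all protein-coding genes. In the same list 6 genes had a liver peak and 6 a heart peak. Usp2, a deubiquitinase gene, had 4 peaks of 147, 90, 65 and 38 inside the gene. Nampt, which makes the NAD used by sirtuins, had 122, and Sirt1 itself had 77. Siah2 had 53 and Fbxw11, a ubiquitin ligase gene, had 14. The best sites of Usp2, Nampt, Sirt1 and Siah2 lay in all 3 lists, and that of Fbxw11 in kidney alone.

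The E-box was then counted in all promoter windows, each 300 bases long (250 before to 50 after a start site). Of 1360 windows overlapping a kidney peak, 487 contained CACGTG (35.8%, 33.3 to 38.4%). Of 31491 windows without a kidney peak 5.91% did (5.65 to 6.18%), and of all windows 7.15%. The word is its own reverse complement, so both strands are read at once. At least 2 copies were present in 7.28% of windows with a kidney peak and 0.305% of those without. CACGTT, searched on both strands and unable to overlap a copy of CACGTG, was present in 9.49% against 4.48%, and in 4.68% of all windows. A gap of this kind was not particular to CACGTT. Over all windows GACGTC was present in 8.38% against 4.23%, and TGCGCA in 18.0% against 7.32%.

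Windows with a kidney peak are rich in CpG, and the comparison was repeated in windows with at least 15 CpG. There CACGTG was present in 36.0% of 1189 windows with a peak and 8.43% of 10189 without. CACGTT was present in 9.08 and 5.23%. Other palindromes of the same base composition differed little in these windows. GACGTC was present in 8.92 and 8.84%, CTCGAG in 6.48 and 7.60%, and AGCGCT in 11.0 and 11.6%. GTCGAC gave 2.19 and 2.02%, ACCGGT 3.62 and 3.96%, and TCCGGA 10.8 and 11.6%. TGCGCA had the largest gap of these 7 words, 19.6 against 15.8%.

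**Figure D5:**
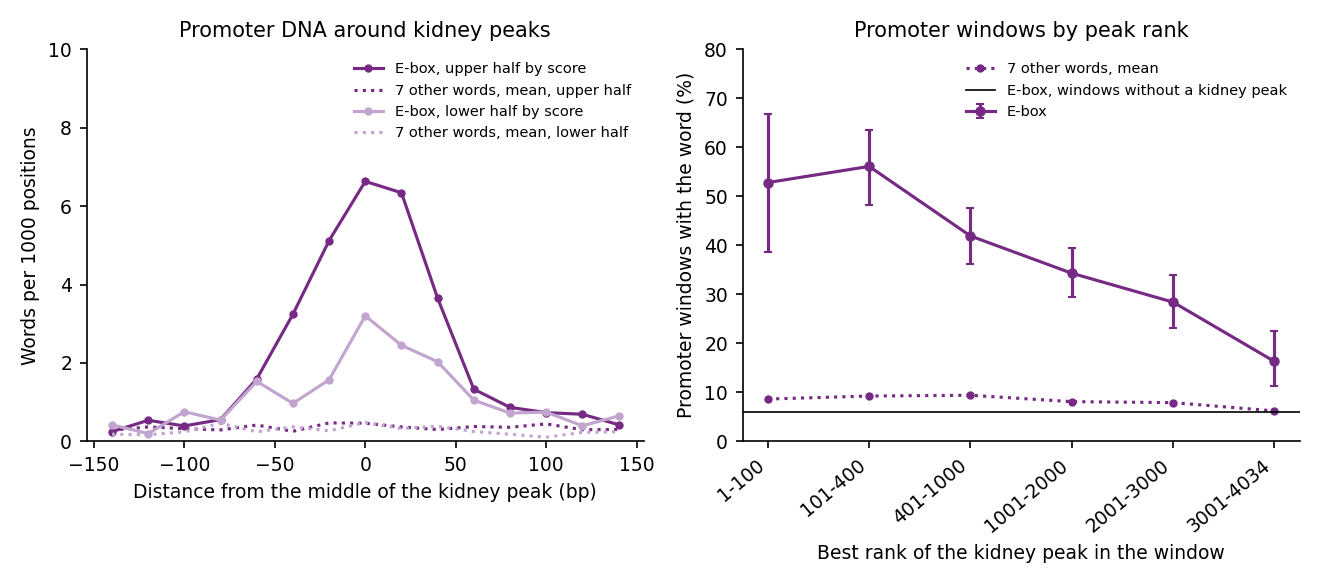
Left, copies of the E-box CACGTG per 1000 positions by distance from the centre of a kidney peak (bp), for the upper and lower 50% of the list and for the mean of 7 words of the same composition; right, percent of promoter windows with the E-box by rank of the kidney peak, with exact 95% intervals, beside the mean of the 7 words and, as a line, the share in windows without a kidney peak. Only positions inside promoter windows are counted on the left. There CACGTG reaches 6.63 per 1000 at the centre in the upper 50% and 3.20 in the lower 50%. Its share of windows is 52.8% at ranks 1 to 100 and 16.3% at ranks 3001 to 4034.

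Where promoter windows gave the sequence, the E-box lay close to the centre of the peaks. Positions outside these windows were not counted, so the values describe peaks at promoters and not the whole list. In the upper 50% of the list by score it occurred 6.63 times per 1000 positions at the centre and 0.248 and 0.425 times at 140 bp to either side. In the lower 50% the centre had 3.20. The mean of the 7 other words stayed between 0.256 and 0.471 over all distances in the upper 50%. Of the 491 kidney peaks that lay wholly within a window, 199 held CACGTG between their ends (40.5%, 36.2 to 45.0%).

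The share of windows with an E-box went down with rank. It was 52.8% for windows whose best peak ranked 1 to 100 (38.6 to 66.7%), 56.1% at 101 to 400, 41.9% at 401 to 1000, 34.3% at 1001 to 2000, 28.4% at 2001 to 3000 and 16.3% beyond (11.3 to 22.5%). The first 2 steps did not differ beyond their intervals. Even the last step lay above the 5.91% of windows without a peak. Sites shared between organs held the word more often. Among peaks lying wholly in a window, 58.3% of those found in all 3 lists held it (47.8 to 68.3%), 47.9% of those in 2 lists and 27.8% of those in kidney alone (22.1 to 34.1%). Rank and sharing go together in this list, so these are not separate observations. Windows of the liver and heart lists held CACGTG in 38.5 and 34.4% of cases, close to the 35.8% of kidney, and the intervals overlapped.

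Clock gene promoters did not all carry the word. Some clock genes, Per2, Bhlhe40 and Wee1 among them, had no promoter window and could not be examined. Bhlhe41, Ciart, Cry1 and Per1 had a kidney peak over a window with CACGTG, and so did Tef. Cry2, Dbp, Hlf, Nr1d1 and Per3 had a kidney peak over the promoter with no CACGTG in the window. For Cry2, Dbp, Hlf and Nr1d1 the best kidney peak lay outside the promoter, and its sequence was not used here. The same holds for Per1, Bhlhe41 and Tef, whose window with CACGTG lay under a lower-ranked peak.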

How the data were processed

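The labels assign 18 libraries to 6 groups of 3 (ChIP or input, 3 organs), each with 10 ng of DNA taken into library preparation, 16 cycles of PCR and reads of 75 bp. Per the labels, the authors pooled the replicates and deposited 1 peak list per organ with a score per peak. Bowtie2, SAMtools, HOMER and the build mm10 are named in the submitters' processing notes, without versions. The score's definition is not given in the sources used here. Genes, start sites and promoter sequences came from RefSeq tables of GRCm38.p6, the same assembly. Promoter windows covered 17491 of 21883 protein-coding genes, and none lay on the chromosome of 101 further peaks. Python 3.11.15, pandas 2.3.3 and SciPy 1.17.1 were used, with counting steps tested on simulated data. Peaks were assigned within 50 kb and overlapped by at least 1 bp. Text names followed a rule: genes of the 30 top peaks, the 20 genes with most peaks, the clock list, and up to 5 genes per other list. Members and lists were chosen with earlier results of these data known. Alternatives covered distance, gene set, overlap and rank. A few of the selected items are not reported here.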

Additional observations from a re-analysis of the deposited data

How the results depend on the processing

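No paired analysis was possible because each list was called on libraries already pooled, and leaving out a replicate was not possible for the same reason. Over the alternatives, 35 values were counted as close to the reported one and 21 as moved. Counts were judged loosely, by their ratio to the reported count. The 134 genes with 3 or more peaks became 104 within 10 kb, 97 by nearest gene end and 95 with all annotated genes. All of these were counted as close, as was a rise from 9 to 13 proximal tubule genes. Shares were counted as moved once they left the 95% interval of the reported share. With the upper 50% of the list by score, 1723 genes had a kidney peak and 40 had 3 or more, and the latter count was 31 without peaks of the kidney list alone, an alternative chosen after seeing the data. Counting by nearest gene end left Tns1 with 3 peaks and no longer first. The share at a gene boundary was 65.3% within 5 kb, 39.3% for protein-coding genes and 53.8% in the upper 50%. The share of kidney peaks overlapping a liver or heart peak, 42.3% as reported by at least 1 bp, was 44.7% with centres within 1000 bp and 57.7% in the upper 50% of each list. Any kidney peak within 50 kb was also counted, a rule chosen after seeing the data that 33.1% of all protein-coding genes met. It gave 8 of 20 clock enzymes and 6 of 12 genes of the thick ascending limb. It gave 6 of 13 genes of the distal convoluted and connecting tubule and 6 of 15 of the collecting duct. The numbers were 4 of 10 podocyte, 3 of 10 endothelial, 2 of 10 immune, 6 of 20 liver and 10 of 20 heart genes. Within 10 kb the fat cell list had 0. CACGTG was in 26.1% of windows with a peak centre within 1000 bp of the start and in 42.2% with a peak of the upper 50%. Windows without a peak held it in 8.43% at 15 or more CpG, also chosen after seeing the data. Unknown read depth limits all list lengths and the kidney-alone shares.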
